A study of Homo sapiens with 16 samples.

Results

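The NF-kB transcription factor family, its inhibitors and its feedback genes were described in 8 human lymphoid cell lines. The genes were chosen by name, as 10 symbols: NFKB1, NFKB2, REL, RELA, RELB, NFKBIA, NFKBIE, BCL3, TNFAIP3 and BIRC3. Of these, 9 had a probe set tied to them, through 14 probe sets, among 12249 genes tested. Expression of BIRC3 was not analysed here. Expression had been measured on 16 Affymetrix HG-U133A arrays, on which a gene's transcripts are read by 1 or more sets of short probes (probe sets) placed towards the transcript's end. The 8 lines came in 4 groups of 4 arrays. The anaplastic large cell lymphoma (ALCL) lines were FE-PD and JB6, SU-DHL-1 and Karpas 299, and the T-cell leukaemia or lymphoma lines were CCRF-CEM and Jurkat, Molt-3 and Molt-4. Each line was hybridised treated and untreated. Treated cells had received 1 µM of the DNA methyltransferase inhibitor 5-aza-2'-deoxycytidine (5-aza-dC) over 6 days, and in the last 24 hours also 625 nM of the histone deacetylase inhibitor trichostatin A (TSA). Untreated cells of the same line were the comparison. All were grown in the same medium with fetal bovine serum. Each line gave 1 array per condition, so the replicates of a group are different cell lines, and p-values measure the spread between these lines. The small number of arrays limits the precision.

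NF-kB is a set of dimers made from 5 related subunits. RELA, REL and RELB carry a domain that activates transcription, whereas NFKB1 and NFKB2 encode the precursors p105 and p100, which are processed to the DNA-binding subunits p50 and p52. In resting cells the dimers are held in the cytoplasm by inhibitors such as IkB-alpha (NFKBIA) and IkB-epsilon (NFKBIE), until the IKK kinase complex marks the inhibitor for degradation. NFKBIA, TNFAIP3 (the ubiquitin-editing enzyme A20), BCL3 and several subunit genes are themselves NF-kB targets, so that the pathway feeds back on itself. BCL3 is a nuclear member of the inhibitor family that binds p50 and p52 homodimers and can help them activate genes. In lymphoid cells the pathway is driven by antigen receptors and by receptors of the tumour necrosis factor family, among them CD30 (TNFRSF8), the antigen that ALCL cells carry. The question the arrays address for these genes is where the ALCL and T-cell lines differed and what the combined treatment changed.

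Levels are log2 values made by the authors with RMA (robust multi-array average), and a difference of 1 on this scale is a 2-fold difference. They compare the same probe set between arrays and not one gene with another. The cell types were checked against their markers. The mean of 7 T-cell markers lay at 6.90 to 7.49 in untreated ALCL lines and at 10.06 to 10.32 in untreated T-cell lines. The mean of 6 ALCL markers lay at 10.92 to 12.05 in untreated ALCL lines and at 6.09 to 6.45 in untreated T-cell lines. ALK was at 6.39 in untreated FE-PD and at 10.00 to 11.10 in the other 3 untreated ALCL lines. Arrays differed within the treated condition. A control probe set for 28S ribosomal RNA read high, at 12.05 to 14.26, on 5 treated arrays, those of Molt-3 and Molt-4 and of FE-PD and JB6 and SU-DHL-1. It read low, at 6.81 in treated Karpas 299, 7.52 in treated CCRF-CEM and 8.15 in treated Jurkat, against 6.60 to 7.62 on the untreated arrays. The spread of values was also narrower on treated arrays, with an SD of 1.73 ± 0.09 against 1.89 ± 0.04 on untreated arrays (SD over arrays, n = 8 each). The control probe sets for beta-actin, whose 3' minus 5' signal is a sign of RNA and target quality, gave 0.12 ± 0.38 on treated and -0.48 ± 0.13 on untreated arrays (SD, n = 8 each), with a change within a line of -0.09 to 1.13. It was higher on the treated array of every line but Karpas 299, and its part in the treatment changes below was not tested.

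Before treatment, the ALCL lines carried higher levels of BCL3, NFKBIA and RELB than the T-cell lines. These were 3 of the 9 genes, all higher, where 8.75% of all genes tested were called at an adjusted p below 0.05, 3.15% higher and 5.6% lower. No member was called lower. The median difference over the 9 genes was 0.74, against 0.04 over all genes. NFKB1, NFKB2, TNFAIP3, NFKBIE, RELA and REL did not pass the test.

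BCL3 (probe set 204908_s_at) read 8.76 in FE-PD, 8.87 in JB6, 11.37 in SU-DHL-1 and 11.06 in Karpas 299, against 5.29 in CCRF-CEM, 5.16 in Jurkat, 5.33 in Molt-3 and 5.21 in Molt-4, all untreated. The lowest ALCL line lay far above the highest T-cell line, and the T-cell lines were almost level with each other. The T-cell values lay below the medians of those arrays, 6.78 to 6.84. Whether they exceed background is not known, and the size of the fold difference depends on them. The difference was 4.77 ± 0.60 (SE; 95% confidence interval 3.39 to 6.16), a 27.3-fold difference (adjusted p = 0.00324, limma). The array design's annotation ties this probe set to BCL3 through its accession and lists a microRNA gene beside it. In arrays of bulk RNA such as these, fewer cells that carry a transcript and less RNA per cell cannot be told apart.

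NFKBIA (201502_s_at) read 11.88 in FE-PD, 9.76 in JB6, 11.02 in SU-DHL-1 and 11.11 in Karpas 299, against 9.29 in CCRF-CEM, 9.05 in Jurkat, 9.00 in Molt-3 and 8.90 in Molt-4. The groups did not overlap, with JB6 the nearest of the ALCL lines to the T-cell lines. The difference was 1.89 ± 0.39 (0.99 to 2.78), or 3.70-fold (adjusted p = 0.0242). Leaving out Karpas 299, Jurkat, Molt-3 or Molt-4 took the adjusted p to between 0.0543 and 0.0751.

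RELB (205205_at), the subunit that pairs with p52 in the alternative arm of the pathway, read 7.62 in FE-PD, 6.45 in JB6, 7.58 in SU-DHL-1 and 8.32 in Karpas 299. The T-cell lines read 6.23, 5.95, 5.99 and 6.10 in CCRF-CEM and Jurkat, Molt-3 and Molt-4. JB6 stood only slightly above CCRF-CEM, and the other 3 ALCL lines stood clearly apart. The difference was 1.43 ± 0.34 (0.64 to 2.22), or 2.69-fold (adjusted p = 0.0408). This call did not hold when any single line other than JB6 was left out (adjusted p 0.0644 to 0.111), while without JB6 the difference was 1.78 (adjusted p = 0.00475).

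NFKB2, which encodes the p52 precursor, did not overlap between the untreated groups either, but its main probe set missed the threshold. Probe set 207535_s_at read 9.01, 6.84, 7.32 and 7.50 in FE-PD and JB6, SU-DHL-1 and Karpas 299, against 6.42, 6.28, 6.52 and 6.13 in CCRF-CEM and Jurkat, Molt-3 and Molt-4. FE-PD was well above the other ALCL lines. The difference was 1.33 ± 0.42 (adjusted p = 0.0897), and without FE-PD it was 0.88 (adjusted p = 0.0341). A second NFKB2 probe set, 209636_at, gave 1.29 ± 0.26 (adjusted p = 0.0236 in the fit of every probe set), and another, 211524_at, gave -0.18 (adjusted p = 0.432). The first and second followed each other over the 16 arrays (Pearson r = 0.943), and 211524_at followed neither (r = -0.228 and -0.285). In all, 4 of the 9 genes had untreated groups that did not overlap, where 18.4% of all genes had such groups.

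The other 5 genes overlapped between the untreated cell types. NFKB1 (209239_at) lay between 8.07 and 9.10 in ALCL lines, against 7.07 to 8.59 in T-cell lines, where CCRF-CEM (8.59) and Jurkat (8.44) read near the ALCL lines and Molt-3 (7.08) and Molt-4 (7.07) read below them. TNFAIP3 (202644_s_at) was widely spread among ALCL lines, with 10.92 in FE-PD, 9.10 in JB6, 7.97 in SU-DHL-1 and 10.37 in Karpas 299, around T-cell values of 8.83 to 9.36, a difference of 0.41 ± 0.58 (adjusted p = 0.694). Its second probe set, 202643_s_at, followed the first over the arrays (r = 0.951). RELA and REL, the subunits of the classical dimers, had differences of 0.03 (95% confidence interval -0.32 to 0.39) and 0.00 (-0.22 to 0.23). The second REL probe set, 206036_s_at, gave -0.62 ± 0.19 (adjusted p = 0.0955) and did not follow the first over the arrays (r = -0.238), so that REL is uncertain. NFKBIE differed by 0.13 ± 0.21.

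**Figure D1:**
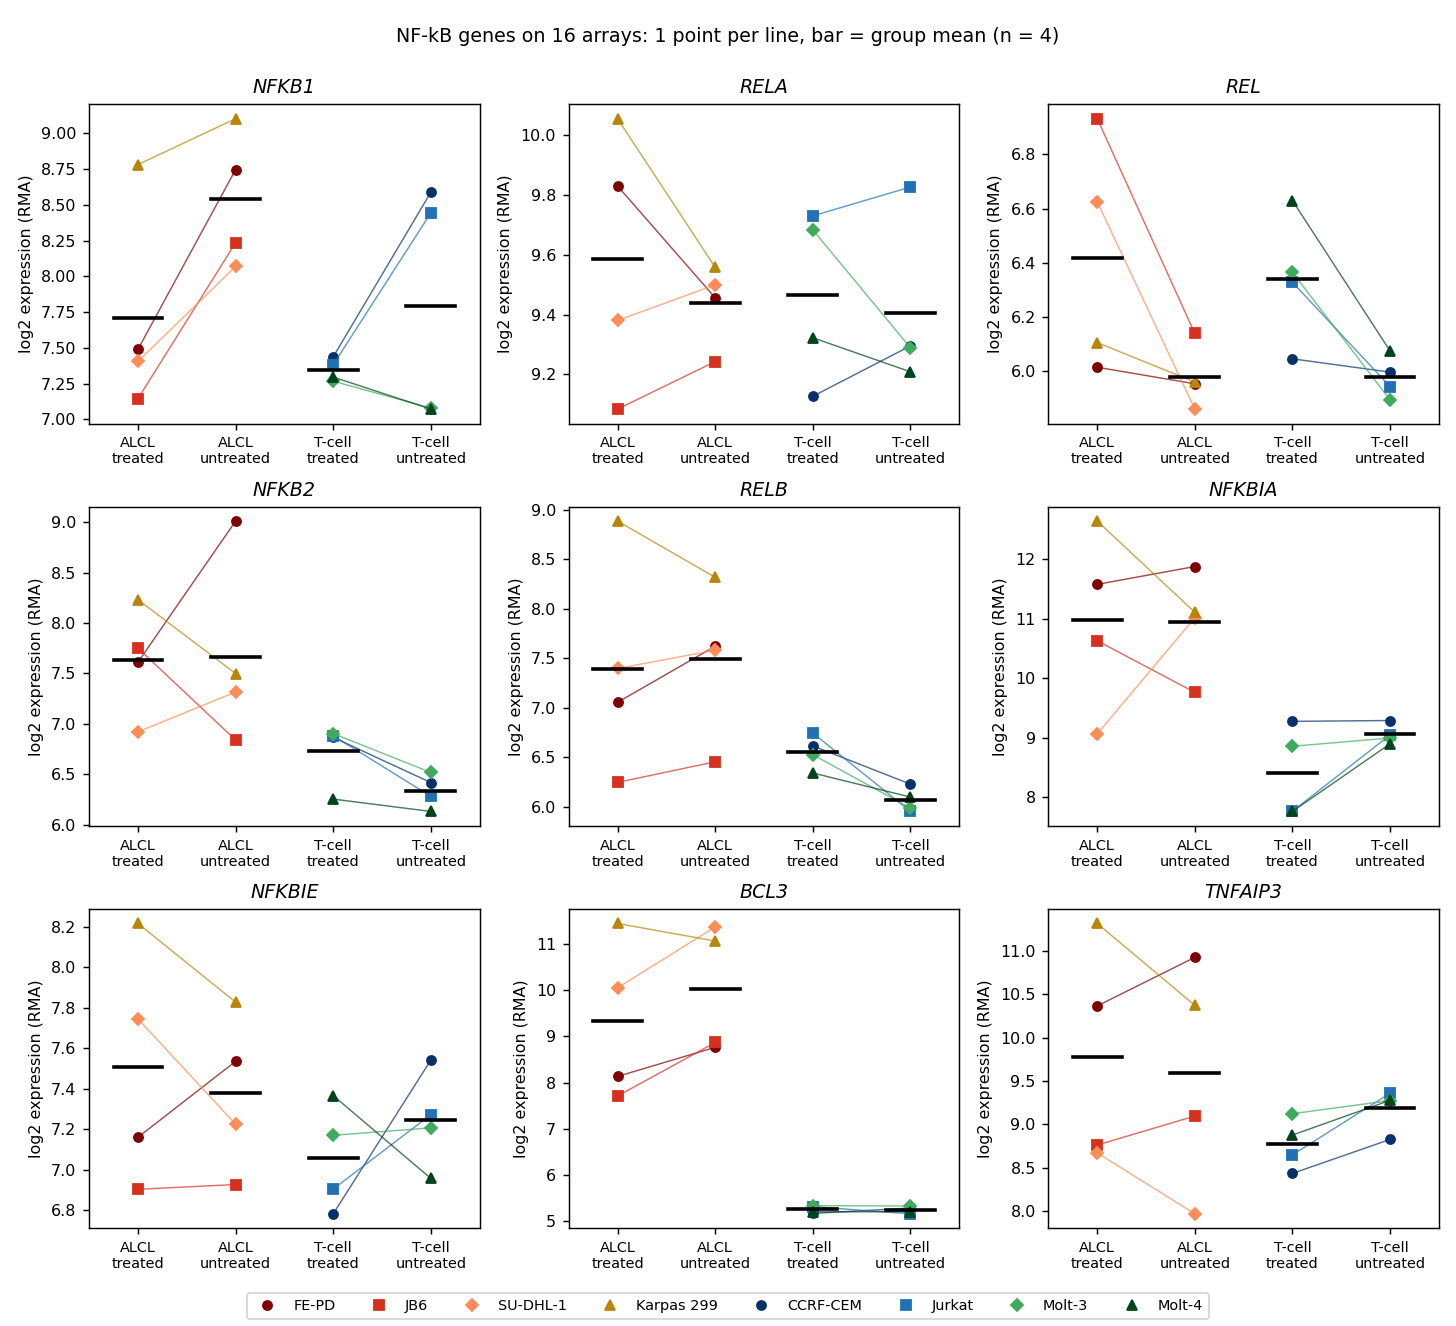
Log2 RMA level (y axis) of each of the 9 NF-kB genes in every line, with ALCL treated, ALCL untreated, T-cell treated and T-cell untreated arrays along the x axis. Each point is 1 array, a thin line joins the arrays of 1 line, and each bar is the mean of 4 arrays. BCL3 lies between 7.71 and 11.44 in the ALCL arrays and between 5.16 and 5.34 in the T-cell arrays, whereas RELA and REL overlap between the cell types.

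The promoter windows of 4 genes are shown because their transcripts were either called higher in ALCL lines (BCL3, NFKBIA), called lower on treatment (NFKB1), or show the feedback gene TNFAIP3 for comparison. Each window runs from 250 bases before to 50 bases after an annotated start (RefSeq, GRCh38.p14) and is written along the gene. Capitals mark matches, on either strand, to the kB consensus. The match in NFKBIA begins at position -81 (the start base is 1) and that in NFKB1 at -49, the matches in TNFAIP3 begin at -67 and -55, and the match in BCL3 begins at position 3. A second annotated window of NFKB1, chr4:102501684-102501983, holds no match and 28 CpG dinucleotides and is not printed, and RELB is not shown.
NFKBIA: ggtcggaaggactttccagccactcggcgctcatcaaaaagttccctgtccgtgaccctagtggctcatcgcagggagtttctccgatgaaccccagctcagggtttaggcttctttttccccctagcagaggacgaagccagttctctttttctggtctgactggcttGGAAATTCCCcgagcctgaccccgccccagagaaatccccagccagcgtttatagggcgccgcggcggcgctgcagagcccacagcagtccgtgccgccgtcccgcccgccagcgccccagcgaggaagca
BCL3: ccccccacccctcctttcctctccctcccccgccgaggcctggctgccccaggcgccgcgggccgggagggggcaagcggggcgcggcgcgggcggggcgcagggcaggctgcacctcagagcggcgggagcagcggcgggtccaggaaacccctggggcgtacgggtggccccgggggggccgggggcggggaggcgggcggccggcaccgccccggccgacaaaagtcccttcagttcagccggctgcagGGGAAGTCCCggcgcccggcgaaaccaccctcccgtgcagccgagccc
NFKB1: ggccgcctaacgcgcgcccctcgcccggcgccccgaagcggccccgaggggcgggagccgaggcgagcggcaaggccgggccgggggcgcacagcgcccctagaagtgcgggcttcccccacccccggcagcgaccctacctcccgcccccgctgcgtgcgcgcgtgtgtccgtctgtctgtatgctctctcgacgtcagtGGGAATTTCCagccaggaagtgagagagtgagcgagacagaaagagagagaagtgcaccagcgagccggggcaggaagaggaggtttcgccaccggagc
TNFAIP3: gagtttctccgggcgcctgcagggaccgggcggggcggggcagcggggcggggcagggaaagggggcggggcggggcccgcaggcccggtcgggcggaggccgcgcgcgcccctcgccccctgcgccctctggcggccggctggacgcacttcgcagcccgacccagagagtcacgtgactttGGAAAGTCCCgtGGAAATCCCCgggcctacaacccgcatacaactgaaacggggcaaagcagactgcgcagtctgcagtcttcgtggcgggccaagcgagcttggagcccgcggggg
The NFKBIA window is chr14:35404700-35404999 on the minus strand. The plus-strand windows are chr19:44748458-44748757 for BCL3, chr4:102501109-102501408 for NFKB1 and chr6:137867009-137867308 for TNFAIP3. A match was present in 8 of the 12 windows of the listed genes, and in 13% of 14377 windows of the genes measured. The 8 include the window of BIRC3, whose expression was not analysed. Several listed genes are themselves NF-kB targets and were chosen by name, so these shares are not a test. A match is a description of letters and not of binding. The 4 windows printed hold 22 (NFKBIA) or 35 (BCL3, NFKB1 and TNFAIP3) CpG dinucleotides, the sites that DNA methyltransferases act on, against a median of 22 over the measured genes' windows. DNA methylation was not measured here.

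In the T-cell lines, RELB rose on treatment and none of the other members was called. This was 1 of 9, where 42.1% of all genes were called, 21.8% higher and 20.3% lower, and 2 of the 9 had an unadjusted p below 0.05. The median change of the 9 genes was 0.01, against 0.14 over all genes. RELB read 6.62 in treated CCRF-CEM, 6.74 in treated Jurkat, 6.53 in treated Molt-3 and 6.34 in treated Molt-4, against 6.23, 5.95, 5.99 and 6.10 in the untreated lines in the same order. Every treated T-cell array lay above every untreated one, which held for 1 of the 9 genes in either direction and for 40.7% of all genes. The change was 0.49 ± 0.18 (95% confidence interval 0.10 to 0.89), or 1.41-fold (adjusted p = 0.0477), and it lost its call without CCRF-CEM, Jurkat, Molt-3, Molt-4, JB6 or SU-DHL-1 (adjusted p 0.0538 to 0.159). Centred on the arrays' spike-in controls the RELB change was -0.18 (adjusted p = 0.758), on a scale where the median of all genes moved to -0.53. The call was also lost with median centring and with median and SD scaling. Untreated T-cell RELB lay below the medians of those arrays, 6.78 to 6.84. The part of these low levels, and of the narrower spread of treated arrays, in the RELB rise was not tested.

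The T-cell lines differed among themselves for NFKB1 and NFKBIA. NFKB1 read 7.44 in treated CCRF-CEM, 7.38 in treated Jurkat, 7.27 in treated Molt-3 and 7.30 in treated Molt-4, against 8.59, 8.44, 7.08 and 7.07 in the untreated lines. After treatment the 4 lines lay close together, whereas the untreated lines formed a high and a low pair. The change was -1.15 in CCRF-CEM and -1.06 in Jurkat, the lines whose treated arrays had low 28S signal, against 0.19 in Molt-3 and 0.22 in Molt-4, whose treated arrays had high 28S signal. The 4-line change of -0.45 ± 0.26 did not pass the test (adjusted p = 0.175). In the fit of the lines with low 28S signal the change in CCRF-CEM and Jurkat was -1.11 (adjusted p = 0.0256). In the fit of the lines with high signal the change in Molt-3 and Molt-4 was 0.21 (adjusted p = 0.451). That fit also took its spread from FE-PD, JB6 and SU-DHL-1. The part of the 28S signal in this was not tested.

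NFKBIA read 9.28 in treated CCRF-CEM, 7.77 in treated Jurkat, 8.86 in treated Molt-3 and 7.76 in treated Molt-4, against 9.29, 9.05, 9.00 and 8.90 in the untreated lines. Jurkat (-1.28) and Molt-4 (-1.14) had clearly lower levels after treatment, while CCRF-CEM (-0.01) and Molt-3 (-0.14) read almost the same. Low 28S signal was on the treated arrays of CCRF-CEM and Jurkat, high signal on those of Molt-3 and Molt-4, and the part of the signal in this was not tested. The change over the 4 lines was -0.64 ± 0.47 (adjusted p = 0.275). TNFAIP3 had negative changes in all 4 T-cell lines, from -0.71 in Jurkat to -0.15 in Molt-3, but the change of -0.41 ± 0.24 did not pass the test (adjusted p = 0.174). It was called when the T-cell arrays were fitted alone, and the change was 0.02 after quantile normalization. Its second probe set gave -0.43 ± 0.19 (adjusted p = 0.0937 in the fit of every probe set).

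BCL3 read as low in treated as in untreated T-cell lines. It had 5.17, 5.32, 5.34 and 5.20 in treated CCRF-CEM and Jurkat, Molt-3 and Molt-4, and the change was 0.01 (95% confidence interval -0.51 to 0.53). This interval lies far below the difference of 4.77 between untreated ALCL and T-cell lines. The treated T-cell values lay below the medians of those arrays, 6.89 to 6.96. Whether a change would show at such low levels was not tested. REL had positive changes of 0.05 to 0.55 in the 4 lines (0.36 ± 0.16, adjusted p = 0.0871), which its second probe set did not share. The main NFKB2 probe set gave 0.39 ± 0.32 (adjusted p = 0.326), while 211524_at, the NFKB2 probe set that follows neither of the others, was called higher (0.60 ± 0.14, adjusted p = 0.0105). Over the same arrays the 7 T-cell markers all fell, to a mean of 7.70 to 8.33 in treated T-cell lines against 10.06 to 10.32 in untreated ones. The means of the 5 mesenchymal markers were 7.07 to 7.58 in treated and 6.65 to 6.88 in untreated T-cell lines. The other marker lists also read higher in treated T-cell lines, with ranges that overlapped. The means were 6.434 to 6.978 against 6.089 to 6.45 for ALCL and 6.76 to 7.39 against 6.525 to 6.986 for B-cell markers. They were 5.402 to 5.866 against 5.189 to 5.458 for myeloid and 5.195 to 5.608 against 5.025 to 5.296 for epithelial markers. The part of these marker shifts in the changes of the NF-kB genes was not tested.

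**Figure D2:**
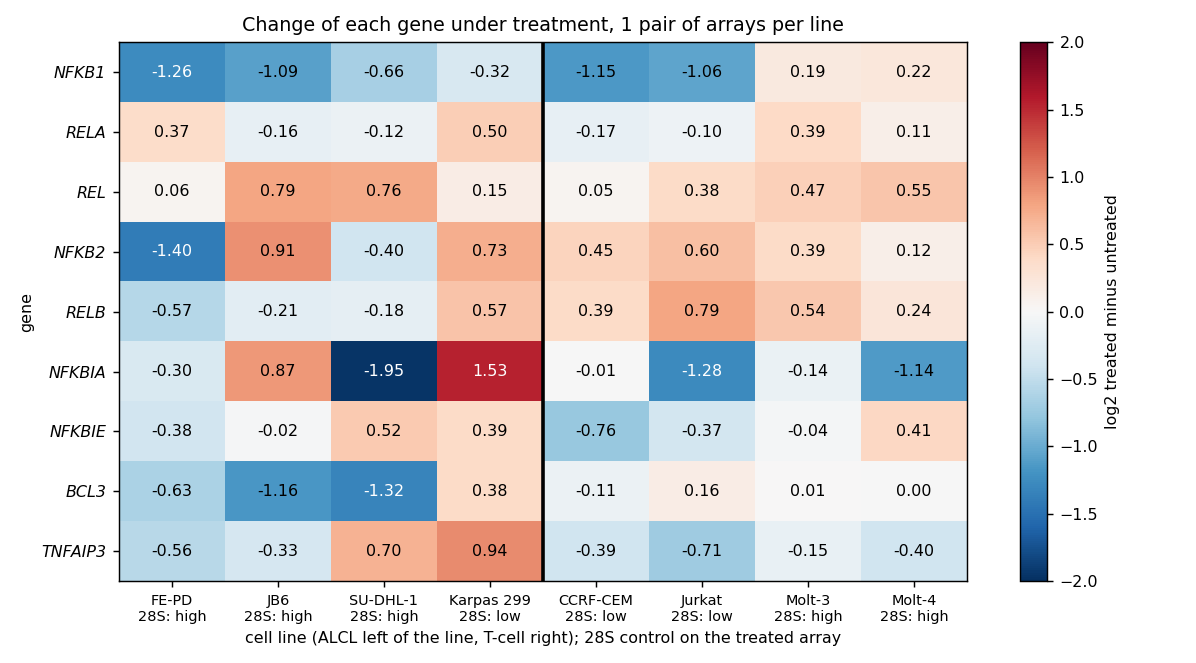
Change on treatment (log2 treated minus untreated) of the 9 NF-kB genes (rows) in each of the 8 lines (columns), ALCL lines to the left of T-cell lines, with the 28S signal of each treated array given as high or low. Red cells are above 0 and blue cells below, and the number in a cell is the change. Changes of NFKBIA run from -1.95 in SU-DHL-1 to 1.53 in Karpas 299, and those of RELB in T-cell lines all lie above 0.

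In the ALCL lines, NFKB1 fell on treatment and none of the other members was called. This was 1 of 9, where 21.4% of all genes were called, 8.01% higher and 13.4% lower, and 3 of the 9 had an unadjusted p below 0.05. The median change of the 9 genes was 0.04, against 0.09 over all genes. NFKB1 read 7.49 in treated FE-PD, 7.15 in treated JB6, 7.41 in treated SU-DHL-1 and 8.78 in treated Karpas 299, against 8.75, 8.24, 8.07 and 9.10 in the untreated lines. Each line was lower when treated, and treated Karpas 299 lay within the range of the untreated lines. None of the 9 genes had treated and untreated ALCL groups that did not overlap, where 16.5% of all genes had. NFKB1 fell by 0.83 (-0.83 ± 0.26, 95% confidence interval -1.41 to -0.26), a 1.78-fold decrease (adjusted p = 0.0444). The change was -1.00 in FE-PD, JB6 and SU-DHL-1 together, whose treated arrays had high 28S signal (adjusted p = 0.00654). That fit also took its spread from Molt-3 and Molt-4. The change was -0.32 in Karpas 299, whose treated array had low signal. The part of the 28S signal in this was not tested. The call was lost without FE-PD, JB6 or SU-DHL-1 (adjusted p 0.0994 to 0.165).

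BCL3 read 8.13 in treated FE-PD, 7.71 in treated JB6, 10.05 in treated SU-DHL-1 and 11.44 in treated Karpas 299, against 8.76, 8.87, 11.37 and 11.06 in the untreated lines. FE-PD (-0.63), JB6 (-1.16) and SU-DHL-1 (-1.32) were lower after treatment, and Karpas 299 (0.38) was not. The change over the 4 lines was -0.68 ± 0.23 (adjusted p = 0.0646). Without Karpas 299, the ALCL line with low 28S signal on its treated array, it was -1.03 (adjusted p = 0.00289). The part of the 28S signal in this was not tested.

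NFKBIA differed in direction among the ALCL lines. It read 11.58 in treated FE-PD, 10.63 in treated JB6, 9.07 in treated SU-DHL-1 and 12.65 in treated Karpas 299, against 11.88, 9.76, 11.02 and 11.11 in the untreated lines. Of all member changes by line, the lowest was this one in SU-DHL-1 (-1.95) and the highest this one in Karpas 299 (1.53). The mean change was 0.04 ± 0.47, with a 95% confidence interval from -1.00 to 1.08, which takes in a 2-fold change in either direction. NFKB2 was as mixed, with -1.40 in FE-PD and 0.91 in JB6 (-0.04 ± 0.32). RELB, the gene that rose in T-cell lines, had changes of -0.57, -0.21, -0.18 and 0.57 in FE-PD and JB6, SU-DHL-1 and Karpas 299 (-0.10 ± 0.18, adjusted p = 0.704). TNFAIP3 had changes of -0.56 and -0.33 in FE-PD and JB6, against 0.70 and 0.94 in SU-DHL-1 and Karpas 299 (0.19 ± 0.24). On its second probe set the 4 ALCL lines all read higher, by 0.01 to 1.17 (0.43 ± 0.19, adjusted p = 0.142), so the mixed direction rests on 1 probe set. RELA had a change of 0.15 ± 0.15 on the probe set used, and of -0.17 ± 0.18 on its second one, 209878_s_at, which read lower in 3 of 4 ALCL lines and in all 4 T-cell lines (-0.37 to -0.07, mean -0.24 ± 0.18, adjusted p = 0.288). NFKBIE had a change of 0.13 ± 0.20.

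RELA (201783_s_at), REL (206035_at) and NFKBIE had overlapping levels in all 4 groups. RELA lay at 9.08 to 10.06 in treated ALCL lines, against 9.24 to 9.56 in untreated ALCL lines, and at 9.13 to 9.73 in treated T-cell lines, against 9.21 to 9.83 in untreated T-cell lines. REL lay at 6.02 to 6.93 in treated ALCL lines, against 5.86 to 6.14 in untreated ALCL lines, and at 6.05 to 6.63 in treated T-cell lines, against 5.90 to 6.08 in untreated T-cell lines. NFKBIE lay at 6.90 to 8.22 in treated ALCL lines, against 6.93 to 7.83 in untreated ALCL lines, and at 6.78 to 7.37 in treated T-cell lines, against 6.96 to 7.54 in untreated T-cell lines. On these probe sets, in none of the 3 genes did a group stand apart from the other groups. On the second REL probe set, 206036_s_at, treated ALCL lines (5.11 to 5.79) lay below treated T-cell lines (5.80 to 6.35) without overlap. The difference there was -0.59 ± 0.20 (adjusted p = 0.186 in the fit of every probe set).

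The lines differed in the balance of their changes. In Karpas 299, 8 of the 9 genes read higher after treatment, with a median change of 0.50, against 0.07 over all genes in that line. In FE-PD, 7 of the 9 read lower, with a median of -0.56, against -0.05 over all genes. The other 6 lines had 3 to 6 genes higher. Single lines carry no test. Only REL read higher after treatment in all 8 lines, by 0.05 to 0.79, and it was called in neither cell type. NFKB2 probe set 211524_at also read higher in all 8, by 0.11 to 0.88, and was called in both (ALCL 0.48 ± 0.14, adjusted p = 0.0421). On untreated arrays REL lay at 5.86 to 6.14 and 211524_at at 4.82 to 5.35, below the array medians of 6.78 to 6.91. The part of these low levels, and of the narrower spread of treated arrays, in the rises was not tested.

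Whether the treatment acted differently on these genes in the 2 cell types was tested directly. Of the 9 genes, 0 were called by limma, where 1.64% of all genes were (1.09% higher and 0.547% lower), and 1 had an unadjusted p below 0.05. That gene was RELB, with a change lower by 0.59 in ALCL than in T-cell lines (-0.59 ± 0.25, adjusted p = 0.356). For NFKB1, called in ALCL lines and not in T-cell lines, the difference of the changes was -0.38 ± 0.37 (adjusted p = 0.721). For BCL3 it was -0.69 ± 0.33 (adjusted p = 0.429) and for TNFAIP3 0.60 ± 0.33 (adjusted p = 0.505). The second TNFAIP3 probe set gave 0.86 ± 0.27 (adjusted p = 0.198 in the fit of every probe set).

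After treatment, BCL3 was higher in ALCL than in T-cell lines. It was the 1 gene of the 9 called, where 2.87% of all genes were called, 1.34% higher and 1.53% lower. The treated values of BCL3 given above, 7.71 to 11.44 in ALCL lines against 5.17 to 5.34 in T-cell lines, did not overlap. The difference was 4.08 ± 0.71 (95% confidence interval 2.48 to 5.68), or 16.9-fold (adjusted p = 0.0177). The BCL3 call was lost without CCRF-CEM, Molt-3 or Molt-4 (adjusted p up to 0.0622) and with high 28S lines only. NFKBIA differed by 2.57 ± 0.70 (5.92-fold), with adjusted p = 0.0957. Treated SU-DHL-1 (9.07) read below treated CCRF-CEM (9.28), and without SU-DHL-1 the difference was 3.20 (adjusted p = 0.0207). RELB, called in the untreated comparison, differed by 0.84 ± 0.47 between treated lines (adjusted p = 0.45), with treated JB6 (6.25) below all treated T-cell lines. NFKB2 lay at 6.92 to 8.23 in treated ALCL lines, against 6.25 to 6.90 in treated T-cell lines, without overlap, but missed the threshold (0.90 ± 0.28, adjusted p = 0.138). In all, 2 of the 9 genes had treated groups that did not overlap, where 10.1% of all genes had. The treated arrays come from the same lines as the untreated ones.

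**Figure D3:**
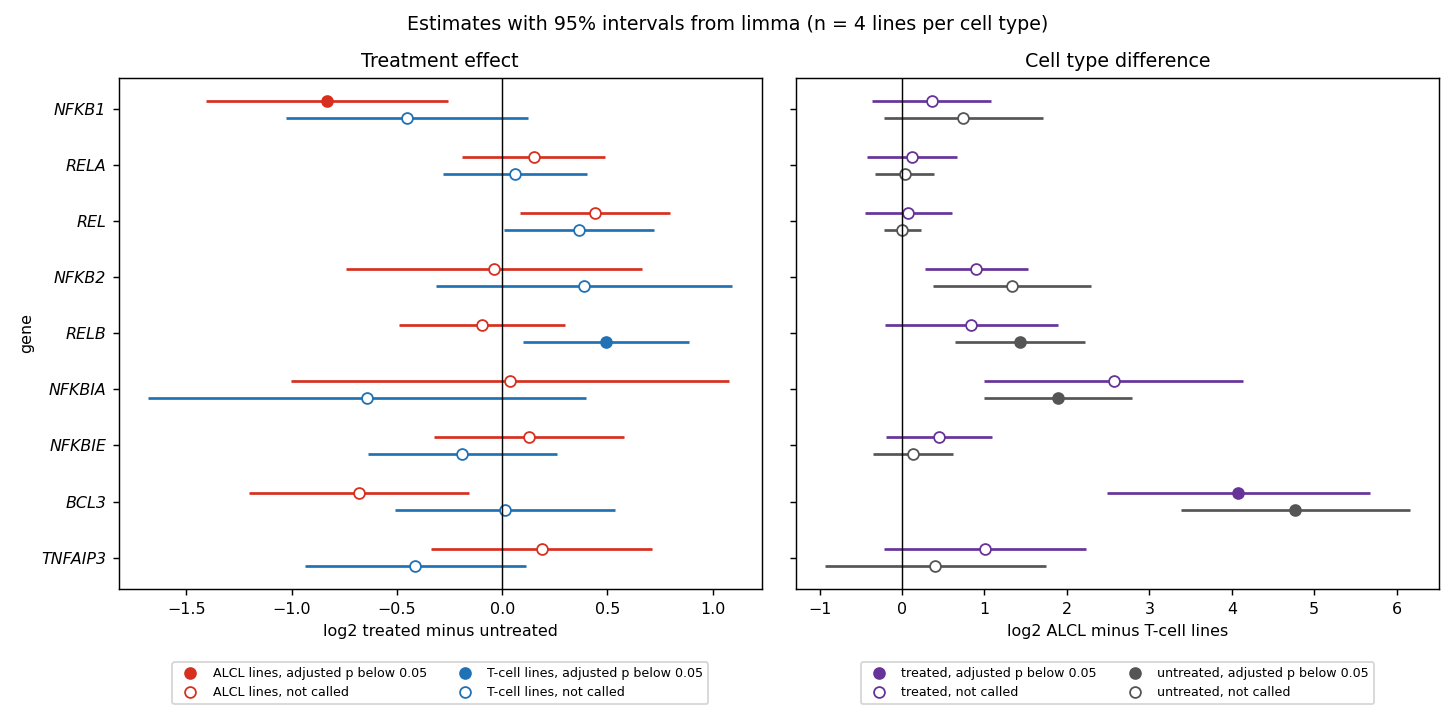
Log2 difference (x axis) of each of the 9 NF-kB genes on treatment (left panel) and between ALCL and T-cell lines (right panel), with 95% confidence intervals from limma as bars and filled points for an adjusted p below 0.05. BCL3 lies at 4.08 in treated and 4.77 in untreated ALCL against T-cell lines, and each panel's other filled points are NFKB1 and RELB on treatment and NFKBIA and RELB between untreated lines.

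The genes around these members were grouped by role in lists that were chosen with earlier results of these arrays known. Of 13 receptors that activate NF-kB, 6 were higher in untreated ALCL lines, where 3.15% of all genes were, with a median difference of 0.36 against 0.04 over all genes. IL1R1, the signalling receptor for interleukin-1, was higher by 4.61 ± 0.25, CD30 (TNFRSF8) by 3.66 ± 0.31 and TNFRSF1B, the second tumour necrosis factor receptor, by 1.15 ± 0.23. In ALCL lines 2 of the 13 fell on treatment, a share near the 13.4% of all genes. CD30 read 7.48 in treated FE-PD, 7.73 in treated JB6, 8.13 in treated SU-DHL-1 and 9.56 in treated Karpas 299, against 12.05, 11.00, 11.05 and 11.80 in the untreated lines. No treated ALCL array reached an untreated one. CD30 fell by 3.25 (-3.25 ± 0.32, adjusted p = 0.000243), and its change was lower than that in T-cell lines (interaction -2.56 ± 0.45, adjusted p = 0.0219). IL1R1 was the second to fall, by 1.62 (-1.62 ± 0.41). In T-cell lines CD40 rose by 0.69, while TNFRSF1A (-1.49 ± 0.20) and TNFRSF14 (-0.63 ± 0.20) fell.

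Of 17 measured genes of the IKK complex and its upstream adaptors, 1 rose and 2 fell in ALCL lines on treatment, 3 rose and 4 fell in T-cell lines, and 3 were higher and 2 lower in untreated ALCL lines. The shares called on treatment were near those of all genes, 21.4% in ALCL and 42.1% in T-cell lines. Between untreated lines, 3.15% of all genes were called higher and 5.6% lower in ALCL lines. MAP3K14 (NIK), the kinase of the alternative arm, rose by 0.77 ± 0.21 in T-cell lines (adjusted p = 0.0156) and was higher by 0.76 ± 0.19 in untreated ALCL lines (adjusted p = 0.0455). TRAF3, the adaptor that directs NIK to degradation, fell in ALCL lines (-0.53 ± 0.17, adjusted p = 0.0486) and in T-cell lines (-1.24 ± 0.17, adjusted p = 0.00063), and was lower in untreated ALCL than in untreated T-cell lines (-1.01 ± 0.24, adjusted p = 0.0365). TRAF1, an adaptor that is itself an NF-kB target, rose by 0.80 ± 0.17 in T-cell lines (adjusted p = 0.00601). Of the kinase complex itself, the catalytic subunit gene IKBKB fell (-0.68 ± 0.19) and the scaffold gene IKBKG rose (0.55 ± 0.16) in T-cell lines. PRKCQ, the kinase that links the T-cell receptor to NF-kB, fell by 1.05 in T-cell lines (-1.05 ± 0.18). Among 11 other inhibitors and brakes, 1 rose in ALCL lines (ZC3H12A, 0.61), and 3 rose and 2 fell in T-cell lines, against the same 21.4% and 42.1% of all genes called. TNIP1, a partner of A20, was one that fell (-1.47 ± 0.35). NFKBIB, which encodes IkB-beta, had changes of -0.54 ± 0.18 in ALCL lines (adjusted p = 0.0548) and -0.45 ± 0.18 in T-cell lines (adjusted p = 0.0618).

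Among 47 measured target genes outside the members, 14 rose and 6 fell in ALCL lines on treatment, a median of 0.36 against 0.09 over all genes, and 7 rose and 6 fell in T-cell lines, a median of 0.34 against 0.14. Of all genes, 8.01% rose and 13.4% fell in ALCL lines, and 21.8% rose and 20.3% fell in T-cell lines, where the list's share of calls was thus below that of all genes. IER3, an immediate early gene, rose by 2.31 in ALCL and by 2.33 in T-cell lines. GADD45B (2.24), SDC4 (1.90), and the chemokine genes CCL3 (1.29) and CXCL8 (1.25) rose in ALCL lines. IL2RA, the alpha chain of the interleukin-2 receptor, fell in ALCL lines (-3.08 ± 0.31, adjusted p = 0.000253), and its change was lower than in T-cell lines (interaction -3.66 ± 0.44, adjusted p = 0.00354). PSMB9, an immunoproteasome subunit, fell in both cell types (ALCL -1.62, T-cell -1.84). Before treatment 7 of the 47 were higher and 2 lower in ALCL lines, where 3.15% of all genes were higher and 5.6% lower, with IRF4, a lymphoid transcription factor, higher by 4.86 ± 0.26, IL2RA by 4.78 ± 0.33 and the AP-1 subunit JUNB by 3.49 ± 0.17. Between treated lines IRF4 and JUNB were also called higher in ALCL, by 3.87 ± 0.24 and 3.15 ± 0.28.

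**Figure D4:**
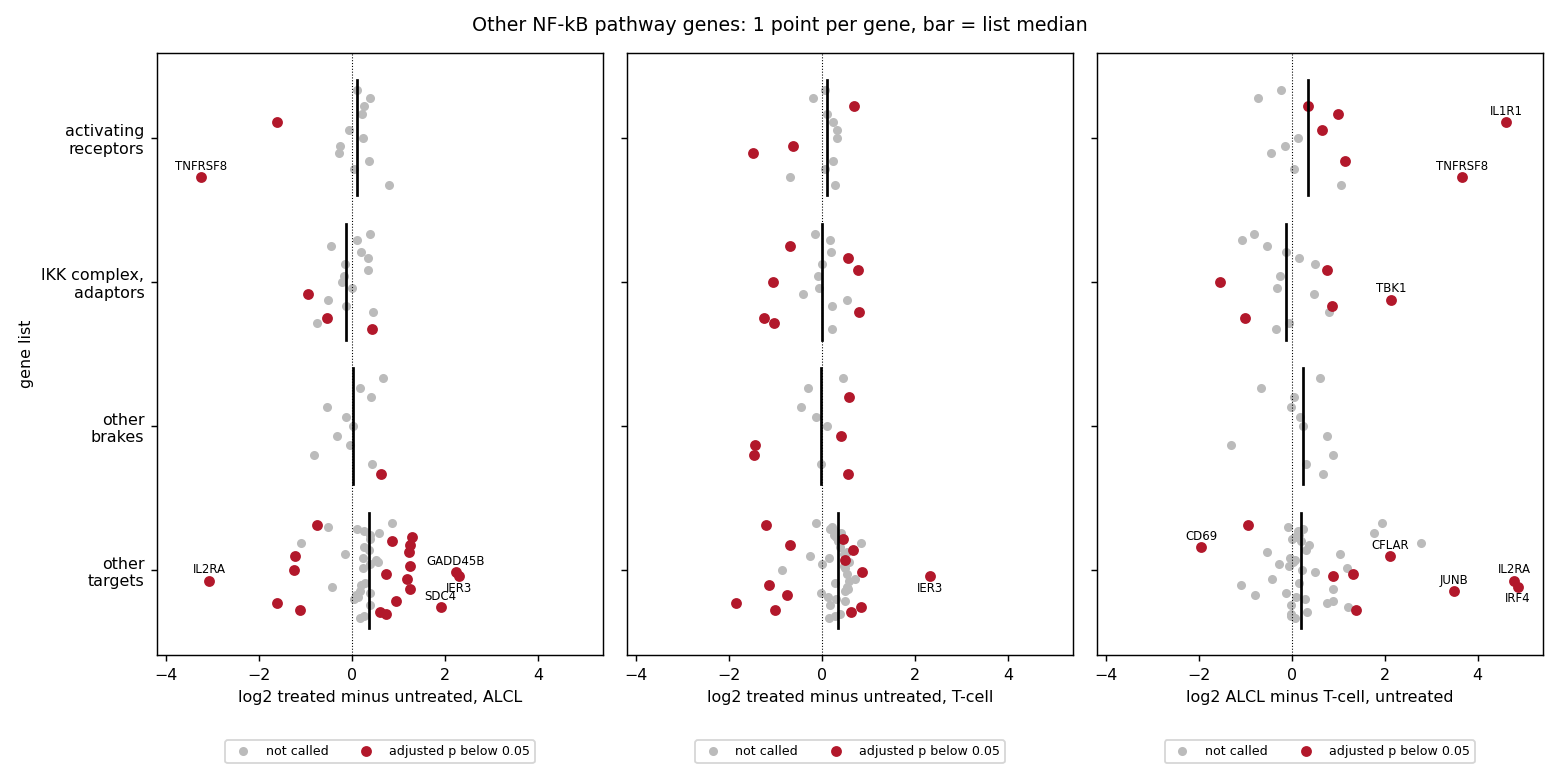
Log2 difference (x axis) of each measured gene of the 4 lists (rows) on treatment in ALCL lines, on treatment in T-cell lines and between untreated ALCL and T-cell lines (panels), with called genes in red, others in grey and a bar at the list median. Of the receptors, 6 of 13 are called higher in untreated ALCL lines.

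Likeness of pattern was measured by Pearson r over the 16 arrays, which share 8 lines and their normalization, and is given as a description. The genes most like BCL3 were SBNO2 (0.982), C1GALT1C1 (0.965) and PDE4D (0.961). RELB was followed most closely by GRINA (0.950), FURIN (0.918) and ELL2 (0.916), NFKBIA by SP110 (0.893), SOCS1 (0.887) and HLX (0.882), and NFKB1 by NUBP1 (0.924), MGAT4B (0.909) and EFHD2 (0.894). For NFKB2 they were EBI3 (0.889), HPN (0.888) and TMEM158 (0.883), for TNFAIP3 DENND4C (0.898), IL22 (0.868) and ITPK1 (0.864), and for RELA CDYL (0.847), PLPP1 (0.746) and ENPP4 (0.737). For NFKBIE they were BTN2A2 (0.814), SMAD3 (0.783) and STK10 (0.781), and for REL, on the probe set that its second one did not follow, MOG (0.960), GRIK2 (0.954) and SLC22A13 (0.952). Between members the highest values were 0.851 for RELB with BCL3 and 0.841 for NFKB2 with NFKBIA, and REL had negative values with all 8 others.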

How the data were processed

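Per the submitters' processing notes, the deposited log2 values were made with RMA in R 2.10.1. How the probe sets were defined and filtered is not stated there. Scanner output was not analysed here, and whether a level exceeds background is therefore not said. Of 22283 probe sets, 19065 carried 1 gene symbol in the platform annotation, 1043 several (362 of which were tied to 1 gene by RefSeq accession) and 2107 none listed, and 68 were controls. Each gene was read from its probe set with the highest mean (4371 genes had several), and 12241 of the 12249 genes were found in the RefSeq table.

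Differences were tested two-sided with limma 3.58.1 (lmFit, eBayes) in R 4.3.3, with Benjamini-Hochberg adjustment over the 12249 genes, and called at an adjusted p below 0.05. Every adjusted p-value printed comes from limma. Treatment effects and their difference came from 1 fit of 16 arrays with the cell line as block. Cell types were compared over 8 arrays. The value after ± is a standard error unless an SD is named. Treated and untreated arrays pair by the cell line in the labels. Deviations from the group means correlated within a line at 0.327 to 0.641, above those with any other line of the type, though for Molt-3 barely so (0.41 against 0.396). The scripts were tested on simulated data. The members and lists were chosen with earlier results of these data known. Named are all members, up to 6 called genes a list with the smallest adjusted p in a comparison, TNFRSF8, TRAF1, MAP3K14 and NFKBIB, and the 3 genes most like each member. Not every gene so chosen is named, and IKBKG and CXCL8 are named outside this rule. Alternatives were fits without the line block, with it as a random effect or in 1 cell type, other probe set rules, a filter, 4 scalings, an intensity trend, each line left out, and lines split by their 28S signal.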

Additional observations from a re-analysis of the deposited data

Results flagged for a closer look

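In 3 of 54 groups of 4 values checked, 1 line stood apart from the others by Dixon's criterion, which chance does in about 5% of groups. NFKB2 was at 6.25 in treated Molt-4, below the 6.87 to 6.90 of the other 3 treated T-cell lines. RELA was at 9.83 in untreated Jurkat, above the 9.21 to 9.30 of the other 3 untreated T-cell lines. TNFAIP3 was at 8.83 in untreated CCRF-CEM, below the 9.27 to 9.36 of the other 3. In the main setting, none of these genes was called in a treatment comparison or between the cell types on the probe set used.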

How the results depend on the processing

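Each difference was recomputed under up to 21 alternatives. Of 872 recomputed differences, 740 kept their direction and their side of the threshold, 40 lost a call and 19 gained one. A further 72 changed sign without a call under either setting, and 1 changed sign from a call, RELB in T-cell lines (-0.18, adjusted p = 0.758, centred on the spike-in controls). BCL3 between untreated cell types was called in each of 18 alternatives, with a highest adjusted p of 0.0478. For RELB in T-cell lines 5 of 20 kept the call, and for NFKB1 in ALCL lines 14 of 21. The causes were not tested.

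Members were counted here by the probe set used. The counts leave out NFKB2 211524_at, called on treatment in both cell types in the fit of every probe set. They also leave out NFKB2 209636_at, called in that fit between untreated cell types. Of the 9 members, 1 was called for treatment in T-cell lines. It was 0 with no replicate block (RELB, adjusted p = 0.398), a random replicate block, every probe set by itself, the lowest 40% of genes left out (which removes RELB and REL), median centring, median and SD scaling, and high 28S lines only. It was 3 with that cell type alone and with spike-in centring, where RELB was not among them, and 0 to 1 with a line left out. With quantile normalization it stayed 1, but through RELA (limma, adjusted p = 0.0377). RELB lost its call there and in low 28S lines only. For treatment in ALCL lines the count of 1 became 0 with no replicate block (NFKB1, adjusted p = 0.182), every probe set by itself and Karpas 299 alone (the 1 ALCL line of low 28S signal, assumed to vary like the T-cell lines), 2 with the 40% filter, spike-in centring or high 28S lines only (each time with BCL3), and 0 to 2 with a line left out. The difference of the treatment effects had 0 called in 20 alternatives. Between untreated cell types the count of 3 became 4 with spike-in centring, 1 in low 28S lines only and 1 to 3 with a line left out. Between treated cell types the count of 1 became 2 with spike-in centring or low 28S lines only, 0 with high 28S lines only, and 0 to 2 with a line left out. Low 28S lines only means Karpas 299 against CCRF-CEM and Jurkat, so these counts say nothing on a dependence on the 28S signal. Over all genes, calls ranged from 1528 to 7569 in T-cell lines (5151 in the main setting), from 7 to 3744 in ALCL lines (2624), from 0 to 274 for the interaction (201), from 113 to 1581 between untreated (1072) and from 99 to 493 between treated cell types (351). Spike-in centring moved the median change of all genes to -0.47 in ALCL lines and -0.53 in T-cell lines, against 0.09 and 0.14 as deposited.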
